A study of Mus musculus with 60 samples.

Results

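WT fibroblasts were followed through the first 2 days of reprogramming in 6 of the 60 libraries of the series: 3 WT 4F libraries at day 2 of doxycycline and 3 at day 0, both without VC. These libraries were taken by their labels. The WT cells were tail tip fibroblasts of the genotype 4FJ_(+/-)_OCT4-GFP from a female mouse of 22 weeks. They carried an inducible polycistronic cassette of Oct4, Klf4, Sox2 and c-Myc (the 4F transgene) inserted at Col1a1 and the OCT4-GFP reporter named in the label, and the transactivator that answers to doxycycline in them is not given in the sources used here. Cells of both days were grown in 3% oxygen and used by passage 3. At day 2 they had received 2 µg/ml doxycycline, and for day 0 the labels give none. Effects of the drug itself, of any difference in time in culture and of the factors cannot be told apart between the days. A pair of other day 2 changes served for comparison. In the D/KO arm the fibroblasts, of the genotype 4FJ_ERCC1_(d/-) and taken from a male mouse aged 8 weeks, lack normal function of the DNA repair protein Ercc1. In the VC arm WT cells were kept with 50 µg/ml ascorbic acid and 3 µM CHIR, an activator of Wnt signalling, at day 0 and at day 2. The WT and D/KO arms differ in genotype, sex, age and animal at the same time, and these cannot be told apart. The sources used here also trace the inducible cassettes of these arms to different mouse lines. A part of the cassette in differences between the arms, those of the factor genes among them, cannot be told apart either. Each group held 3 libraries, and the labels do not say whether they came from separate cultures, so the p-values may measure technical spread only.

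Induction of the 4F factors in fibroblasts starts an initiation phase in which the fibroblast programme is dampened, contractile and matrix genes fall, and epithelial genes begin to appear, the mesenchymal to epithelial transition (MET). TGFb signalling, which maintains stress fibres and matrix in fibroblasts, opposes this transition. The endogenous pluripotency network is known to switch on much later. Sox2 and Oct4 (gene Pou5f1) bind regulatory DNA together, Klf4 is also a regulator of epithelial genes, and Myc drives growth and biosynthesis.

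PolyA RNA was read as counts per gene, and the 6 WT libraries held 16882346 to 18145653 counts (16538374 to 18484951 over the 36 libraries of the time course). Levels are given as CPM, the count divided by the TMM-scaled library total in units of 1e+06. CPM is not scaled to gene length, so levels were compared between samples and not between genes. The fibroblast markers Thy1, Pdgfra, Pdgfrb, Dcn, Lum, Col1a1 and Col1a2 were read at 200 CPM or more in each of the 6 libraries, and Fap at 2.54 to 7.81 CPM. The library labelled WT day 2 replicate 2 stood apart from its group. Its variance against the other day 2 replicates was 36.3 and 43.3 times counting noise, where replicates 1 and 3 differed by 25.9 times and the day 0 pairs by 5.91 to 9.66 times, and ribosomal protein genes took 5.05% of its counts against 3.14% to 3.78% in the other 5. In WT day 2 replicate 3 mitochondrial genes took 0.479% of the counts, against 0.888% to 1.14% in the other 5. Counts without WT day 2 replicate 2 are given beside the gene groups where they moved by over 1.5 times. Of the 171 genes named by rule, 113 overlap another gene annotated in GENCODE M39, 108 of them a gene on the other strand (Acta2 with Stambpl1 and Cnn1 with Elof1, for example) and 23 a gene on the same strand. Whether the counting used strand is not given in the sources used here, so reads of such partners cannot be told apart. Because the samples are bulk cultures, fewer cells of a type and less RNA per cell cannot be told apart.

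All 4 factor genes were read first, since they check the labels. Pou5f1 (ENSMUSG00000024406, chr17:35816789-35822274, + strand, GRCm39) was at 2.1, 1.29 and 2.5 CPM in the day 0 replicates and at 41.5, 12.5 and 48.8 CPM at day 2. Sox2 (ENSMUSG00000074637, chr3:34704554-34706610, + strand) went from 2.6, 2.69 and 1.58 CPM to 57.8, 25.3 and 59.7 CPM. In both genes every day 2 library lay above every day 0 library, and replicate 2 was the lowest of day 2. The log2 difference was 4.11 (SE 0.335, edgeR adjusted p = 1.93e-11) for Pou5f1 and 4.38 (SE 0.281, edgeR adjusted p = 5.08e-14) for Sox2. Myc (ENSMUSG00000022346, chr15:61857227-61862223, + strand) was more even, with 34.6, 36.4 and 37.6 CPM at day 0 and 138, 130 and 138 CPM at day 2 (log2 difference 1.90, SE 0.112, edgeR adjusted p = 6.49e-15). Klf4 (ENSMUSG00000003032, chr4:55527139-55532528, - strand), which WT fibroblasts already expressed at day 0, did not pass the test: it was at 198, 191 and 189 CPM at day 0 and at 229, 175 and 178 CPM at day 2, and the day 2 values lay on both sides of the day 0 values. Its log2 difference was 0.0068 (SE 0.18, edgeR adjusted p = 1), with a sign that turned in 4 of 11 alternative settings.

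The mean levels at day 4 were 60.5 CPM for Pou5f1, 83.8 CPM for Sox2, 171 CPM for Myc and 229 CPM for Klf4. Reads from the 4F transgene cannot be told apart from those of the endogenous genes in these counts, and Sox2 also lies within Sox2ot on the same strand. The other pluripotency genes were described separately for that reason.

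**Figure D1:**
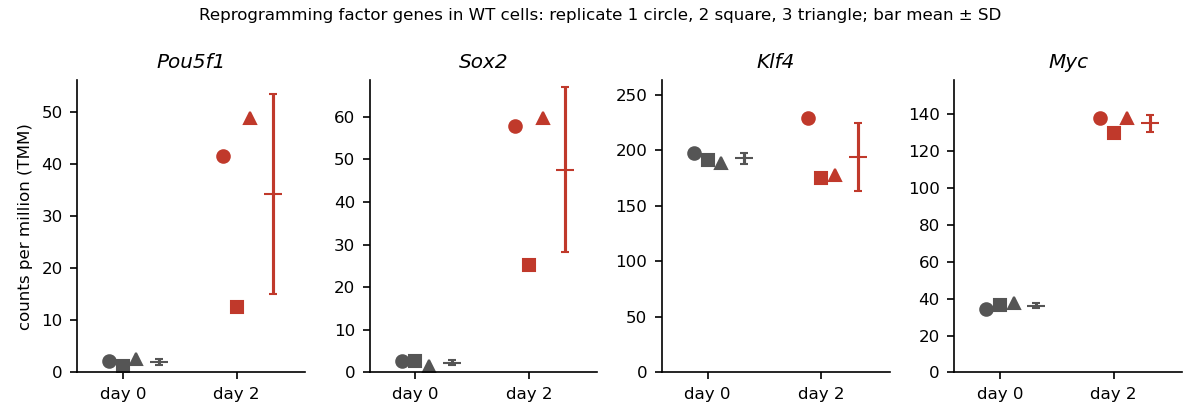
CPM of the 4 reprogramming factor genes in each WT library at day 0 (grey) and day 2 (red) without VC, with circle, square and triangle for replicates 1, 2 and 3 and a bar for the mean ± SD of 3. Pou5f1, Sox2 and Myc lie higher at day 2 in every library, with replicate 2 lowest for each, while the Klf4 values of the 2 days overlap.

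Over all genes, 15832 passed the expression filter and 1672 of them (10.6%) differed between WT day 2 and day 0 at an edgeR adjusted p under 0.05. Of these, 991 (6.26% of genes tested) were higher and 681 (4.3%) were lower at day 2. Most changes were modest: the median size was 0.69 on the log2 scale among the higher genes and 0.67 among the lower ones, and 307 higher and 179 lower genes changed by at least 1. The libraries of the 2 days did not overlap in 95.8% of the higher and 97.9% of the lower genes, against 27.2% of all genes tested. The median log2 difference of all genes tested was 0.0034. At an unadjusted p under 0.05 there were 3700 genes.

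Without WT day 2 replicate 2, 663 genes were higher and 404 lower, and 1006 of the 1672 genes were called in both fits. Without WT day 0 replicate 3 there were 660 higher genes, and without WT day 0 replicate 1 there were 434 lower genes. None of the 1672 genes was called in the opposite direction in these fits or in the other 8 alternative fits.

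**Figure D2:**
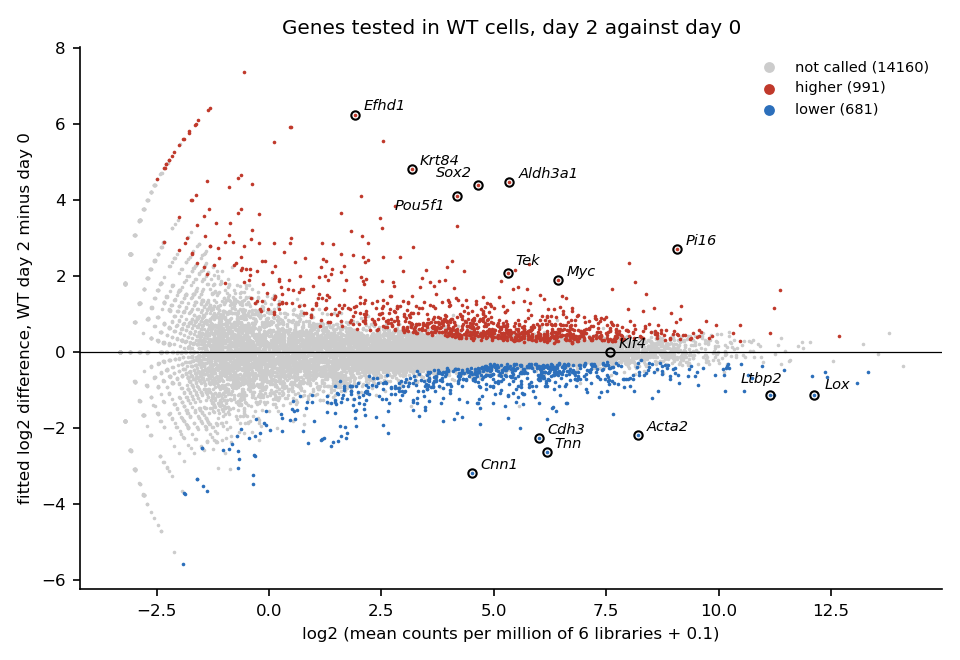
Each point is 1 of the 15832 genes tested, with log2 of the mean CPM of the 6 WT libraries (plus 0.1) across and the fitted log2 difference, day 2 minus day 0, upward, and with genes called higher in red and lower in blue. Efhd1, Krt84, Sox2, Pou5f1 and Aldh3a1 stand highest among the genes with a name, Cnn1 and Tnn lowest, and Klf4 lies on the zero line. Genes with 0 counts at day 0 form the curve at the upper left, where the fitted value is not a bound.

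The 10 protein-coding genes with the largest rises (a mean of at least 5 CPM at day 2) were Efhd1, Aqp5, Krt84, Aldh3a1, Sox2, Pou5f1, Ano1, Msln, Fam180a and Tspan15. Several belong to epithelia or mesothelium: Aqp5 is a water channel of glands, Krt84 a hair and nail keratin, Ano1 an epithelial chloride channel and Msln the mesothelial surface protein mesothelin. Aldh3a1, an aldehyde dehydrogenase of cornea and other epithelia, had the smallest p of all genes: it was at 3.7, 3.12 and 3.52 CPM at day 0 and at 67.7, 100 and 62.4 CPM at day 2 (log2 difference 4.47, SE 0.212, edgeR adjusted p = 3.04e-17). Efhd1, a mitochondrial calcium-binding protein, was near 0 at day 0, with 0.11, 0.0537 and 0.102 CPM from 5 counts in all, and reached 7.6, 9.46 and 4.68 CPM (log2 difference 6.24, SE 0.495, edgeR adjusted p = 2.22e-11). Aqp5 went from 0.11, 0.269 and 0.306 CPM to 8.03, 16.5 and 9.08 CPM, a log2 difference of 5.56. The groups did not overlap for any of the 10 genes, as the rule that named them required. Ano1 (log2 difference 4.09), Msln (3.85), Fam180a (3.66) and Tspan15 (3.52) started at 0.107 to 1.53 CPM.

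Tek and Bmp6 were among the higher genes of smallest p. Tek, the angiopoietin receptor, was at 16.8, 13.7 and 14.9 CPM at day 0 and at 65.4, 60.1 and 65.8 CPM at day 2 (log2 difference 2.07, SE 0.108, edgeR adjusted p = 2.94e-16). Bmp6, a BMP ligand, moved from 15.4, 14.9 and 15.6 CPM to 52.5, 54.6 and 61.1 CPM (log2 difference 1.87, SE 0.101, edgeR adjusted p = 6.82e-16). In both genes the spread within a day was small beside the gap between days. Pi16, a peptidase inhibitor that marks a class of adventitial fibroblasts, was at 166, 135 and 126 CPM and then at 839, 1140 and 827 CPM (log2 difference 2.71, SE 0.218). Usp1, the deubiquitinase of the Fanconi pathway, was at 33.7, 31.4 and 36.7 CPM and then at 94.9, 89.1 and 103 CPM (log2 difference 1.49, SE 0.098).

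A further 20 genes called higher had 0 counts in all 3 day 0 libraries. For these, the day 2 level was set against a floor of 3 counts over the day 0 group. The fold so given allows for counting error at day 0 and takes the day 2 counts as read. Myoc, the trabecular meshwork protein myocilin, was at least 22-fold higher at day 2 (0.7, 1.49 and 1.32 CPM). The serotonin transporter Slc6a4 was at least 11.4-fold higher. The keratins Krt14, Krt90 and Krt16 were at least 9.02-fold, 8.35-fold and 8.35-fold higher. The folds of Krt14 and Krt16 rest mainly on WT day 2 replicate 2, without which neither was called (edgeR adjusted p = 0.115 and 0.0827).

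Among the 10 protein-coding genes with the largest falls (a mean of at least 5 CPM at day 0 and no overlap) were Cnn1, Tnn, Lrp2, Cdh3 and Acta2. Cnn1, the actin-binding protein calponin of smooth muscle and myofibroblasts (ENSMUSG00000001349, chr9:22010512-22020926, + strand), was at 44.7, 39.7 and 39.2 CPM at day 0 and at 5.76, 4.78 and 3.03 CPM at day 2, so that it fell by 3.18 on the log2 scale (SE 0.298, edgeR adjusted p = 5.88e-10). Acta2, smooth muscle actin and the defining marker of myofibroblasts (ENSMUSG00000035783, chr19:34217737-34232990, - strand), went from 444, 529 and 482 CPM to 111, 127 and 83.7 CPM, a fall of 2.18 (SE 0.169, edgeR adjusted p = 5.72e-12). Both genes lay apart by a wide margin, every day 2 library being below every day 0 library. Tnn, the matrix protein tenascin-W, had the smallest p of the lower genes and fell by 2.62, from 147, 116 and 109 CPM to 20.7, 18.2 and 21.5 CPM (SE 0.157, edgeR adjusted p = 8.2e-15). Cdh3, P-cadherin, fell by 2.25, from 109, 106 and 104 CPM to 25.1, 22.3 and 19.8 CPM. Lrrc15, a membrane protein of TGFb-activated fibroblasts, fell by 1.99, from 83.3, 70 and 77.8 CPM to 21, 19.9 and 17.1 CPM. The remaining genes among the 10 largest falls were Lrp2 (log2 difference -2.26), Limch1 (-2.13), Adra1b (-2.12), Trpv2 (-1.93) and Atp1b1 (-1.92), with 3.44 to 12.4 CPM at day 0. The matrix protein Smoc2 fell by 1.63, from 302, 317 and 290 CPM to 95.1, 101 and 97.8 CPM.

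Contractile and TGFb target genes were taken as a list of 20 genes, all tested. Of these, 11 were lower and 2 higher at day 2, where 4.3% and 6.26% of all genes were, and the median log2 difference was -0.755 against 0.0034 over all genes tested. Beside Acta2 and Cnn1, Lmod1, which nucleates actin filaments, fell by 1.89 (57, 32.5 and 31.8 CPM to 16.5, 7.45 and 8.75 CPM), and the myosin light chain Myl9 fell by 1.33 (143, 146 and 132 CPM to 57.5, 67.3 and 42.5 CPM). Tpm1, a tropomyosin, fell by 0.80, Actg2, enteric smooth muscle actin, by 0.92, and Cnn2, another calponin, by 0.35, a call lost without WT day 0 replicate 1 or 2 or WT day 2 replicate 3. Itga11, the collagen receptor integrin of myofibroblasts, fell by 1.75, from 116, 107 and 113 CPM to 42.9, 27.2 and 30.1 CPM (SE 0.154, edgeR adjusted p = 1.5e-10). Tagln, transgelin, was low throughout (3.04, 4.19 and 5.16 CPM against 1.83, 2.06 and 2.48 CPM) and did not pass the test (edgeR adjusted p = 0.0603).

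Direct TGFb target genes were divided. The latent TGFb binding protein Ltbp2 fell by 1.13 (3260, 3120 and 2960 CPM to 1380, 1260 and 1620 CPM). Tgfbi, a secreted matrix protein named for its induction by TGFb, rose, from 54.2, 57.5 and 50.9 CPM to 131, 124 and 116 CPM (log2 difference 1.19, SE 0.0966, edgeR adjusted p = 1.68e-11), and Bhlhe40 rose by 0.48. The feedback regulators Smad7 (log2 difference 0.24), Skil (-0.0047) and Pmepa1 (0.033), as well as Ccn1 (-0.045) and Ccn2 (-0.46), did not pass the test. With any 1 WT library left out, 9 to 11 members were lower. A single member, in place of 2, was higher without WT day 0 replicate 2, WT day 0 replicate 3 or WT day 2 replicate 1, the call of Bhlhe40 being lost in each.

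**Figure D3:**
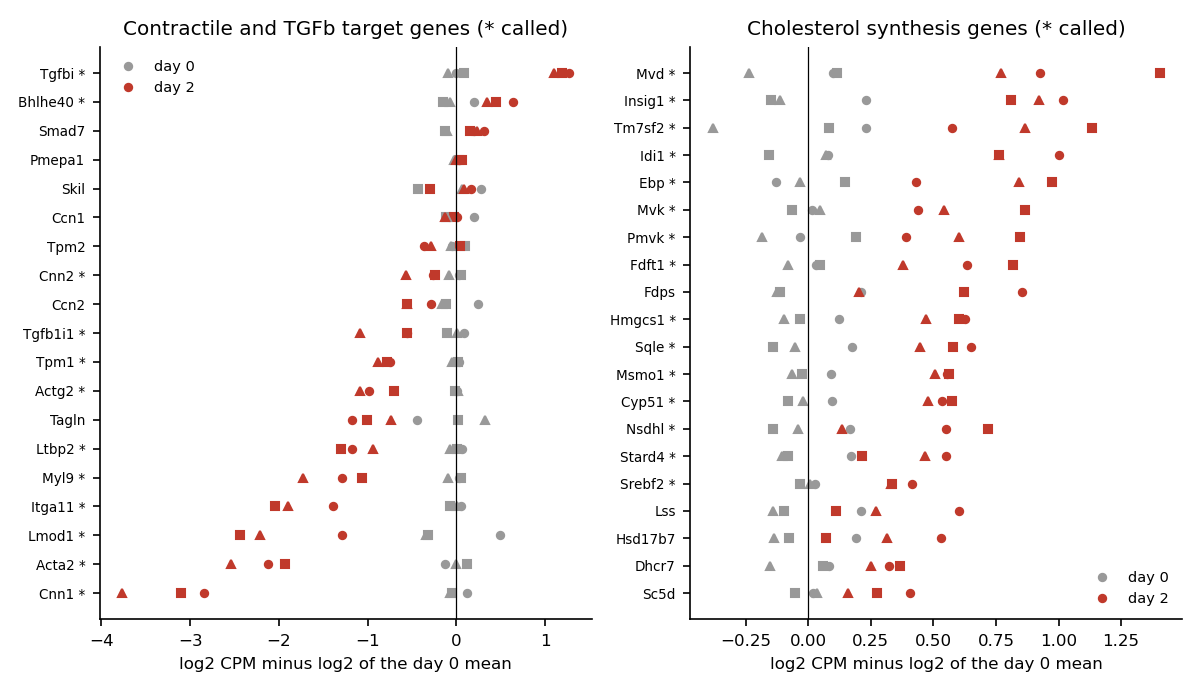
Log2 CPM of each WT library minus log2 of the day 0 mean for 19 of the contractile and TGFb target genes (left) and 20 of the cholesterol synthesis genes (right), day 0 in grey and day 2 in red, with circle, square and triangle for replicates 1, 2 and 3 and a star for genes called. On the left 10 genes called lie to the left of the zero line and 2 to its right; on the right the 15 genes called all lie to its right, with differences of 0.36 to 1.06.

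Fibroblast identity and matrix genes moved in both directions. Of 34 fibroblast and mesenchymal genes, 5 were higher and 8 lower, where 6.26% and 4.3% of all genes tested were (the same shares apply to the collagen and protease counts), with a median log2 difference of -0.0575 (-0.11 without WT day 2 replicate 1 and -0.00249 without WT day 2 replicate 2). Fibronectin (Fn1) fell by 0.80, from 11800, 10000 and 11200 CPM to 7680, 5180 and 6140 CPM, and the EMT factor Snai2 fell by 0.55, from 89.3, 82.1 and 91 CPM to 68.7, 62.1 and 48.5 CPM. Fap, fibroblast activation protein, rose from 2.54, 2.69 and 3.52 CPM to 7.27, 7.81 and 7.1 CPM (log2 difference 1.34, SE 0.193, edgeR adjusted p = 4.23e-06), and the dermal transcription factor Tbx15 rose by 0.61. The surface marker Thy1 was also called higher (log2 difference 0.42), while Pdgfra (0.01), Pdgfrb (-0.17), Dcn (0.32), Lum (-0.37), Prrx1 (0.08), Twist1 (0.042) and Zeb1 (-0.07) did not pass the test. Without WT day 2 replicate 2 the list held 2 higher and 4 lower genes. It also held 2 higher genes without WT day 0 replicate 1 or without WT day 0 replicate 3, and the call of Thy1 was lost in these 3 fits.

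Among 25 collagen genes, 6 were lower and 3 higher (median log2 difference -0.3). The fibril-associated Col12a1 fell by 1.13, from 3530, 3030 and 3330 CPM to 1760, 1120 and 1630 CPM, and Col15a1, of basement membrane zones, rose by 0.75, from 84.9, 55 and 58.7 CPM to 111, 101 and 121 CPM. The main fibrillar collagens did not pass the test, and their log2 differences were -0.37 for Col1a1, -0.042 for Col1a2 and 0.49 for Col3a1. The 6 lower calls depended on the libraries: 1 was left without WT day 2 replicate 2 or WT day 0 replicate 2, and 3 without WT day 0 replicate 1, WT day 0 replicate 3, WT day 2 replicate 1 or WT day 2 replicate 3. The calls of Col27a1 and Col6a2 were lost in all 6 fits. In the list of 26 matrix proteases and inhibitors 3 were higher and 5 lower (median -0.2). Lox, the collagen crosslinking enzyme, fell by 1.13, from 6230, 6060 and 6190 CPM to 3250, 2420 and 2780 CPM (SE 0.123, edgeR adjusted p = 1.76e-08), while its relative Loxl3 rose by 0.58, from 330, 404 and 366 CPM to 506, 524 and 612 CPM. The plasminogen activator Plat fell by 0.93 and the aggrecanase Adamts4 by 0.90.

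Of 3 epithelial lists, keratins held calls in 1 direction, and the other two lists held genes that rose and genes that fell. The summed level of keratins was 14.4 to 18.3 CPM at day 0 and 39.8 to 62 CPM at day 2. That of cornified envelope genes was 93.1 to 102 CPM and then 68.8 to 97.5 CPM, and that of epithelial junction and MET genes 243 to 251 CPM and then 215 to 222 CPM. The counts called in these lists stand beside 6.26% of all genes higher and 4.3% lower. Of 26 keratins, 16 had enough counts over the 36 libraries to be tested. Of the 16, 9 had 0 counts at day 0 and so could not be lower, 6 were at or under 3 counts on both WT days, and 6 were called higher at day 2. Krt84 was at 0.497, 0.537 and 0.766 CPM at day 0 and at 13.5, 20 and 18.2 CPM at day 2 (log2 difference 4.82, SE 0.258, edgeR adjusted p = 1.72e-15). Krt19, a keratin of simple epithelia, went from 7.84, 11.3 and 8.43 CPM to 16.7, 28.1 and 24 CPM (log2 difference 1.32, SE 0.199), and Krt20 from 0.331, 0.107 and 0.409 CPM to 2.05, 3.44 and 1.49 CPM (3.01, SE 0.609). Krt13 rose from 1 count in all to 31 counts. Krt14 (0.323, 1.03 and 0.055 CPM at day 2) and Krt16 (0.108, 1.03 and 0.165 CPM) were highest in replicate 2, and neither was called without it (edgeR adjusted p = 0.115 and 0.0827). The simple-epithelium pair was nearly silent: Krt8 had 2 counts at day 2 and Krt18 had none on either day. With any 1 WT library left out 4 to 7 keratins were higher, and 4 without WT day 2 replicate 2. In the fit of the 6 WT libraries alone 3 were higher. Keratins are near-identical in places, and how the authors' counting treated reads that fit several genes is not given in the sources used here.

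Cornified envelope genes, which belong to the outer epidermis, gave 6 higher and 1 lower of 13 tested (32 in the list), and 4 were higher without WT day 2 replicate 2. The 13 were kept by counts over the 36 libraries. In WT cells 1 of them had 0 counts at day 0 and so could not be lower, and 3 were at or under 3 counts on both days. Slurp1, a secreted epidermal regulator, had 2 counts at day 0 and was at 1.67, 3.19 and 2.81 CPM at day 2, and Krtdap, a keratinocyte differentiation peptide, had 2 counts and was then at 2.05, 4.21 and 1.38 CPM. Both passed the test (edgeR adjusted p = 1.49e-08 and 2.7e-08). Sbsn rose by 0.76 from 19.9, 24.8 and 17.6 CPM, and Cdsn, corneodesmosin, fell by 1.37, from 76.6, 69.9 and 69 CPM to 31.7, 29.4 and 22.2 CPM. Filaggrin (Flg) and involucrin (Ivl), major envelope proteins, had 0 counts in all 6 libraries, and loricrin had 1.

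In the list of epithelial junction and MET genes, 22 of 39 were tested, and 5 were higher and 2 lower. Of the 22, 3 had 0 counts at WT day 0 and so could not be lower, and 2 were at or under 3 counts on both WT days. E-cadherin (Cdh1), whose gain defines MET, had 0 counts at day 0 and 11 counts at day 2 (0.216, 0.103 and 0.275 CPM), which is at least 3.67-fold higher over the floor of 3 counts (edgeR adjusted p = 0.00945). Its mean was 0.0696 CPM at WT day 4. At WT day 2 plus VC it was 0.0407 CPM, without a call (edgeR adjusted p = 0.247), and at D/KO day 2 it was 2 CPM, with a call (1.89e-09). The desmosomal plaque protein Pkp1 went from 2 counts to 57 counts, and periplakin (Ppl) rose by 0.98, from 18.9, 15.8 and 14.6 CPM to 34.1, 28.9 and 34.3 CPM. Against these, P-cadherin and the desmosomal protein Pkp2 (log2 difference -1.31) were lower. Of the 5 higher genes 3 were called without WT day 2 replicate 2 and 3 without WT day 0 replicate 3. A single lower gene was called without WT day 2 replicate 2 or WT day 0 replicate 2, the call of Pkp2 being lost in both.

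Most endogenous pluripotency genes were at or near 0 on both days, Klf2, Klf5, Tbx3, Fut4, Dnmt3l and Alpl apart. Apart from the factors, 26 such genes were listed, 1 symbol was not found, and 11 were tested. Of the 11, 1 was called higher and 2 lower, beside 6.26% and 4.3% of all genes tested, and 2 had 0 counts at day 0. Nanog had 9 counts over the day 0 libraries and 5 over the day 2 libraries, Esrrb 4 and 3, and Sall4, Lin28a, Zfp42, Dppa2 and Dppa4 had none on either day. L1td1, an RNA-binding protein of pluripotent cells, was called higher with 0 and 12 counts (edgeR adjusted p = 0.0251), a call that was lost in 5 of 9 alternatives, WT day 2 replicate 2 left out among them. A pair of genes fell. Klf2, which fibroblasts also express, went from 99, 110 and 104 CPM to 44.6, 67.9 and 68.7 CPM (log2 difference -0.78, SE 0.178, edgeR adjusted p = 0.00236), and the alkaline phosphatase Alpl from 1.99, 2.15 and 1.33 CPM to 0.808, 0.257 and 0.22 CPM (log2 difference -2.07, SE 0.476). At day 4 Klf2 had a mean of 21.1 CPM and Alpl of 0.0355 CPM.

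Cholesterol synthesis genes had the highest share of members called of the 27 lists drawn in the plot of gene lists, the marker lists and the factors apart. Cells make cholesterol from acetyl-CoA through mevalonate, and the transcription factor Srebf2 switches on the enzymes of this route when sterols run low, often with help of the factor NF-Y at CCAAT boxes. All 24 members were tested, all 24 had a positive log2 difference, and 18 were higher and none lower, where 6.26% of all genes were higher. The median was 0.565. Changes were small and even: they reached from 0.36 for Srebf2 itself to 1.06 for Mvd among the genes called.

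By step of the route, Hmgcs1, the synthase ahead of mevalonate, was at 96.6, 86.9 and 83 CPM at day 0 and at 137, 135 and 123 CPM at day 2 (log2 difference 0.57, SE 0.121, edgeR adjusted p = 0.0012). The mevalonate kinases and the decarboxylase were called: Mvk rose by 0.63, Pmvk by 0.63 and Mvd by 1.06, the last from 20.6, 20.8 and 16.3 CPM to 36.5, 50.9 and 32.8 CPM. Idi1, the isomerase that follows, rose by 0.84, from 17.3, 14.7 and 17.2 CPM to 32.8, 27.8 and 27.8 CPM (SE 0.118, edgeR adjusted p = 2.6e-06). Replicate 2 was highest at day 2 for Mvd and tied for lowest for Idi1, so the 3 day 2 libraries kept no common order.

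In the squalene and sterol steps, Fdft1 rose by 0.62, Sqle by 0.56 (66.3, 53.3 and 56.5 CPM to 92, 87.7 and 79.9 CPM), Cyp51 by 0.53, Msmo1 by 0.54 and Ebp by 0.77. Lss (log2 difference 0.34), Dhcr7 (0.31), Sc5d (0.28), Hsd17b7 (0.32) and Fdps (0.59) did not pass the test, and Fdps was read at 2.42 CPM or less. Among regulators, Insig1, the sterol-sensing retention factor, rose by 0.92 (59.1, 45.4 and 46.5 CPM to 102, 88.3 and 95.3 CPM). Between 14 and 17 members were called with any 1 WT library left out, and 16 without WT day 2 replicate 2. The call of Pmvk was lost in 4 of the 6 fits.

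The promoters of this list were read because its members rose together. RefSeq (GRCm38.p6) sequence for the 250 bases before the start site was at hand for 16 of the 24 genes. A total of 6 motifs were searched on both strands, of which the CArG box can share letters with CCAAT. Some genes have several start sites and so several windows. The letters CCAAT were in at least 1 window of each of the 16 genes, against 40.3% of the 11280 tested genes with such a window, 37.5% of all 27025 genes with one, 38.6% of genes called higher and 39.5% of genes called lower. Members not called at day 2 (Dhcr7, Hsd17b7, Lss and Sc5d) are among the 16, so the letters do not set the called members apart. By window, 16 of the 19 of this list held them, and 3, of Dhcr7 and Pmvk, did not, against 34.9% of the 14462 windows of tested genes. The sterol element letters TCACNCCAC were in 1 of the 16 (Hmgcs1) and in 1.28% of tested genes. A match is a description of the letters in the window and not a site of binding. The windows of 4 early enzymes are given 5′ to 3′ on the strand of the gene, with CCAAT or its reverse complement and the sterol element in capitals. Idi1 and Mvd were named by p; Hmgcs1 and Mvk were chosen after their values were seen, for the sterol element and the number of boxes.

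The window of Hmgcs1 is chr13:119690101-119690350 (+ strand) with 3 boxes and the sterol element, that of Idi1 chr13:8885356-8885605 (+ strand) with 2 boxes, that of Mvd chr8:122443423-122443672 (- strand) with 2 boxes, and that of Mvk chr5:114444019-114444268 (+ strand) with 5 boxes, all in GRCm38.p6.
Hmgcs1: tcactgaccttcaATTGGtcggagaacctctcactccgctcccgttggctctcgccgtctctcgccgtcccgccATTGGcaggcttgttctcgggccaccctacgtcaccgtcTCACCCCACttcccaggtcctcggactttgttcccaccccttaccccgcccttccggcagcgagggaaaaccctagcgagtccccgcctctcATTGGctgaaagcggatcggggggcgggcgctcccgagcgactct
Idi1: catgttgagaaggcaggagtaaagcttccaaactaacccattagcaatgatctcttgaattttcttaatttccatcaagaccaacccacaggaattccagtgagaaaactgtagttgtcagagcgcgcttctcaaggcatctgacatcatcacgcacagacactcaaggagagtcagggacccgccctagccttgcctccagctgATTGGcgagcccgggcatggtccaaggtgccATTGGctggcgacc
Mvd: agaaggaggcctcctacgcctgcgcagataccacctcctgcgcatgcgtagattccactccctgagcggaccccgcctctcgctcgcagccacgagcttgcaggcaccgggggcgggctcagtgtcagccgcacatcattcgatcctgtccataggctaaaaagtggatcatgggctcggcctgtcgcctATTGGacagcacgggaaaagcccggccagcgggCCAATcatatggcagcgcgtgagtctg
Mvk: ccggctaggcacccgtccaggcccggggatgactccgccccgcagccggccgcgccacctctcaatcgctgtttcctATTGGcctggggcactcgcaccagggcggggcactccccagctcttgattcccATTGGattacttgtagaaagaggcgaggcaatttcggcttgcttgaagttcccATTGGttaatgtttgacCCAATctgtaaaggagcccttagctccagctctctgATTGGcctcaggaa

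The box nearest to the start ended 41 bases before it in Hmgcs1, 10 in Idi1, 23 in Mvd and 10 in Mvk. Across the genes called in WT cells, other motifs were spread as follows. The letters GGGTGTG, which Klf factors recognise, were in 14.7% of the 720 higher genes with a window, in 8.64% of the 521 lower genes and in 8.66% of tested genes. The E-box CACGTG, which Myc recognises, was in 9.58% of higher, 6.91% of lower and 9.66% of tested genes. The octamer ATGCAAAT of Oct factors was in 1.94%, 2.69% and 1.59%. The CArG box of serum response factor was in 2 of the 11 contractile and TGFb target genes with a window, Cnn2 and Myl9, and in 1.49% of tested genes.

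Few growth and cell cycle genes were called between the days. Of 36 ribosome biogenesis and Myc target genes, 33 had a positive log2 difference with a median of 0.2, where 50.6% of all genes tested were positive. Called were 3 higher (Nop16, Fbl and Npm1) and 1 lower, counts near the shares of all genes (6.26% and 4.3%). At an unadjusted edgeR p under 0.05, 10 were higher and 1 lower, beside 3700 of the 15832 genes tested in either direction. Odc1, the polyamine enzyme and a known Myc target, fell by 0.58, from 108, 114 and 105 CPM to 67.8, 71.4 and 79.8 CPM, although Myc itself rose. The nucleolar protein Nop16 rose by 0.62, from 19.7, 18.6 and 17.3 CPM to 26.3, 30.8 and 27.9 CPM. Without WT day 2 replicate 2 a single gene of the list was higher, as without WT day 0 replicate 1, and 5 were higher without WT day 2 replicate 1. The call of Npm1 was lost in 4 of the 6 fits with 1 WT library left out and that of Fbl in 2. In DNA replication 1 of 39 genes was called, Rrm2, the ribonucleotide reductase subunit, which rose by 1.10 (28.1, 20.5 and 26.4 CPM to 60.4, 54.6 and 45.6 CPM), and in mitosis 1 of 35, the phosphatase Cdc25b, which rose by 0.66. The proliferation marker Mki67 was at 5.3, 5.26 and 6.03 CPM and then at 9.7, 5.5 and 7.37 CPM, without passing the test (edgeR adjusted p = 0.402). The medians were 0.15 for replication (0.0939 without WT day 0 replicate 3) and 0.068 for mitosis, and the latter was -0.148 without WT day 2 replicate 2.

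Among 28 p53 targets and Cdk inhibitors, 1 was higher and 3 were lower, beside 6.26% and 4.3% of all genes. Phlda3, a p53 target that restrains Akt, rose by 0.68, from 237, 282 and 238 CPM to 319, 456 and 435 CPM, while Plk2 fell by 0.71, Cdkn2c by 0.52 and Eda2r by 0.45. The call of Cdkn2c was lost without WT day 2 replicate 3, and that of Eda2r without WT day 0 replicate 3 or WT day 2 replicate 2. DNA repair lists, of interest because the series concerns a repair mutant, held 0 to 2 calls each in WT cells, shares near or below those of all genes (6.26% higher and 4.3% lower). Of 30 homologous recombination and Fanconi genes 2 were higher (Usp1 and Fance), of 22 nucleotide excision repair genes 1 was higher (Xpc, log2 difference 0.41), of 17 end joining genes 1 was lower (Polq, 0.483 to 1.28 CPM at day 0), and of 26 base excision and mismatch repair genes none was called (1 at an unadjusted edgeR p under 0.05, and 0 by DESeq2). Their medians were -0.11, 0.0955, -0.02 and 0.0525, and without WT day 2 replicate 2 they were -0.082, 0.0338, 0.0789 and -5.73e-05, so that the last 2 turned sign. That of homologous recombination and Fanconi genes ran from -0.082 to -0.00829 with any 1 WT library left out. Usp1 kept its call in all 11 alternatives. The call of Fance was lost without WT day 0 replicate 1 or 3 or WT day 2 replicate 2 or 3, that of Xpc without any 1 of the WT day 0 replicates or WT day 2 replicate 2, and that of Polq without WT day 0 replicate 3 or WT day 2 replicate 1. A base excision and mismatch repair gene was higher without WT day 0 replicate 2 or WT day 2 replicate 2. Of 36 epigenetic enzymes 1 was called, Ezh1, a Polycomb methyltransferase, which rose by 0.51 (41.3, 42.4 and 45 CPM to 62.7, 60.4 and 60.4 CPM), and 1 more was lower without WT day 2 replicate 2.

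Signalling and secreted genes gave calls in both directions, where 6.26% of all genes were higher and 4.3% lower. Of the 11 insulin-like growth factor genes 3 were higher and 3 lower: Igfbp6 rose by 1.07 (192, 236 and 192 CPM to 366, 516 and 416 CPM), Igfbp3 by 0.81 and the noncoding RNA H19 by 1.94, whereas Igfbp2 fell by 1.17 (238, 216 and 213 CPM to 83.1, 107 and 108 CPM). A single gene of this list was lower without WT day 0 replicate 1 or WT day 2 replicate 3. In the complement list (16 tested) 3 were higher and 1 lower, and without WT day 2 replicate 2 there were 2 higher and 2 lower. The lectin pathway protease Masp1 fell by 1.03 (528, 535 and 560 CPM to 308, 232 and 256 CPM). Of 19 cytokines and chemokines tested, 3 were higher and 4 lower. Cxcl12 fell by 0.61 (edgeR adjusted p = 0.0506 without WT day 2 replicate 3) and Csf1 by 0.43, Cxcl14 rose by 0.56, and Tslp rose by 1.97, a call lost without WT day 2 replicate 2, in whose absence 1 gene of the list was higher. With WT day 2 replicate 3 left out 1 of the 4 lower genes of that list was called.

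The counts of the next lists are to be read against 6.26% of all genes higher and 4.3% lower. Of 22 AP-1 and immediate early genes 4 were higher and 2 lower. The MAP kinase phosphatases Dusp4, Dusp5 and Dusp1 rose by 1.64, 1.20 and 0.78, the last without a call when WT day 0 replicate 1 was left out. Of 23 NRF2 and stress genes tested 2 were higher and 3 lower, with Nqo1, the quinone reductase, rising by 1.41 (8.34, 11.2 and 9.65 CPM to 28.9, 29.1 and 19.3 CPM) and the stress kinase homologue Trib3 lower by a log2 difference of -0.80, a call lost in 5 of the 6 fits with 1 WT library left out. Of 28 glycolysis and hypoxia genes 3 were higher and 1 lower, close to those shares. The list labelled Wnt feedback also holds secreted Wnt inhibitors, and of its 16 genes tested 3 were lower (Dkk3, Sfrp2 and Dkk2). The call of Dkk2 was lost in 4 of the 6 fits with 1 WT library left out, and Nkd1 did not pass the test (edgeR adjusted p = 0.107). Sfrp2, a secreted Wnt inhibitor, fell by 1.54, from 157, 109 and 107 CPM to 42.3, 39.7 and 45.9 CPM. None of 13 BMP target genes and none of 29 interferon-stimulated genes passed the edgeR test, although Bmp6 rose. At an unadjusted p under 0.05, 4 BMP target genes were lower and 1 interferon-stimulated gene was higher, and DESeq2 called 0 in both lists. In the fit of the 6 libraries alone 1 member of each list was higher and 1 lower. That fit also called 5 genes of the Wnt list and 5 stress genes lower. Several of these counts moved with the library left out. Without WT day 0 replicate 1, 2 AP-1 genes were higher and none lower, and none was lower without WT day 2 replicate 2 or 3. A single stress gene was lower without WT day 0 replicate 2 or 3 or WT day 2 replicate 1 or 3. A single glycolysis gene was higher without WT day 2 replicate 2 or any 1 day 0 replicate, and none was lower without any 1 of the 6 libraries.

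**Figure D4:**
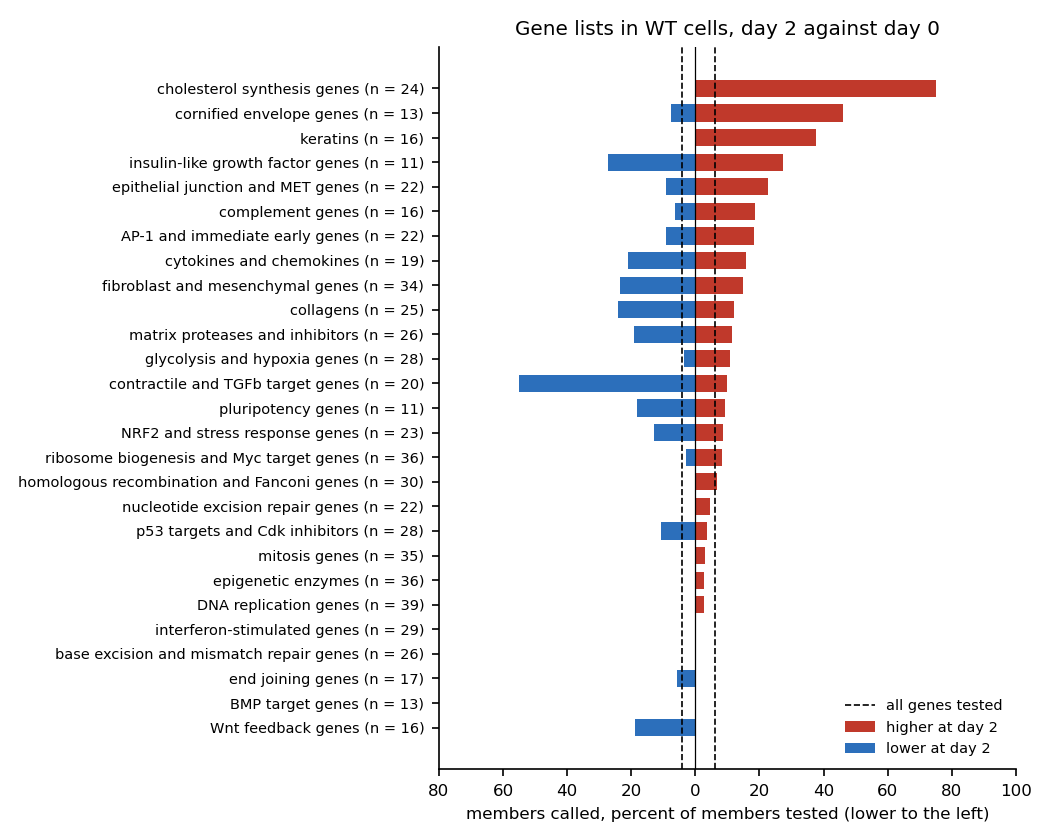
Members called higher (red, to the right) and lower (blue, to the left) at WT day 2 against day 0, in percent of the members tested, for 27 gene lists with the number tested in brackets; dashed lines mark the shares over all genes tested, 6.26% higher and 4.3% lower. Cholesterol synthesis genes reach furthest to the right (18 of 24) and contractile and TGFb target genes furthest to the left (11 of 20).

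Markers of other cell types were read in the same libraries, since a culture from tail tip can hold them. Their counts called stand beside 6.26% of all genes tested higher and 4.3% lower. The summed level of keratinocyte markers was 30.7 to 32.5 CPM at day 0 and 56.7 to 59.9 CPM at day 2, and 4 of the 8 tested were called higher: Itgb4 (9.06, 8.11 and 7.46 CPM to 25.1, 28.2 and 25.6 CPM, log2 difference 1.68), Itga6, Lgals7 and Krt14. Their defining members Krt5 and Krt1 had 8 and 3 counts at day 2 and none at day 0. Of the 8 keratinocyte markers tested, 3 had 0 counts at day 0 and so could not be lower. The part of keratinocytes in the keratin and envelope results was not tested. Without WT day 2 replicate 2, or without WT day 0 replicate 2, 2 keratinocyte markers were called. The call of Itga6 was lost in 3 of the 6 fits and that of Lgals7 in 2. Endothelial markers summed to 15.1 to 17.5 CPM and then to 62.3 to 67.2 CPM, of which Tek made up nearly all, and Pecam1 was at 0.565 CPM or less in every library. Immune markers were at 83 to 157 CPM and 75.5 to 116 CPM, with the highest value in WT day 0 replicate 1, and none of 8 was called. Muscle markers were at 2.38 to 3.98 CPM and 5.01 to 5.28 CPM, melanocyte and Schwann markers at 20 to 24.1 CPM and 22.2 to 26.3 CPM, and cartilage, bone and fat markers at 35.1 to 47.4 CPM and 40 to 41.6 CPM, without a call in edgeR among their 2, 7 and 4 tested members. At an unadjusted p under 0.05 the counts were 3 of the immune, 1 of the muscle, 0 of the melanocyte and Schwann and 1 of the cartilage, bone and fat markers, and DESeq2 called 1 immune marker lower and 1 cartilage, bone or fat marker higher. With a library left out, 1 immune marker was lower without WT day 0 replicate 2 or WT day 2 replicate 1, and 1 cartilage, bone or fat marker was higher without WT day 2 replicate 1.

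The WT change was then set beside that of the D/KO cells over the same 2 days. More genes changed in D/KO cells: 2260 were higher (14.3% of genes tested) and 2085 lower (13.2%). Of the genes higher in WT cells, 687 were also higher in D/KO cells, which is 69.3% of the WT list and 30.4% of the D/KO list, and 498 were lower in both (73.1% and 23.9%). The WT-higher genes had a median log2 difference of 0.74 in D/KO cells, and the WT-lower genes one of -0.78. A call in 1 arm and not in the other is no test of a difference, so the difference itself was tested.

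The day 2 change differed between WT and D/KO cells in 1036 genes (6.54%). Of these, 352 were called in WT cells between the days. By fitted values, whether or not each change passed its own test, 589 had the same sign in both arms and the larger size in D/KO cells, 22 the same sign and the larger size in WT cells, and 425 opposite signs. The rise of Pou5f1 was smaller in WT cells (WT minus D/KO -2.25 on the log2 scale, SE 0.576, edgeR adjusted p = 0.0119), from mean levels of 1.96 to 34.3 CPM in WT and of 0.835 to 68.8 CPM in D/KO cells. This call was lost in 3 of 16 alternatives. Klf4 stood at 193 and 194 CPM in WT cells and at 94.6 and 229 CPM in D/KO cells, a difference of -1.27 (SE 0.256, edgeR adjusted p = 0.0012), so that the day 2 means of the arms lay closer than the day 0 means. The changes of Sox2 (difference -0.60, SE 0.407) and Myc (-0.056, SE 0.154) did not pass this test.

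The genes with the smallest p in which the WT change was the more negative were Vit, Prss35, Pi16, Clic5 and Homer2, and all 5 rose steeply in D/KO cells. Pi16 went from a mean of 142 to 935 CPM in WT cells and from 6.69 to 1220 CPM in D/KO cells (WT minus D/KO -4.80, SE 0.322). Prss35, a protease homologue, stayed at 28.1, 19.9 and 23.7 CPM and then 24.8, 19 and 21 CPM in WT cells, where it did not pass the test, and went from 1.41 to 62.7 CPM in D/KO cells (-5.63, SE 0.313). In Vit (-2.66), Clic5 (-4.21) and Homer2 (-4.49) too, the D/KO level at day 0 was the lower of the arms.

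In the other direction the smallest p were those of Plvap, Xdh, Apln, Sema7a and Tgfbi. Plvap, a protein of endothelial fenestrae, rose from 1.6, 0.591 and 0.919 CPM to 4.47, 8.43 and 5.23 CPM in WT cells and was at means of 313 and 188 CPM in D/KO cells (WT minus D/KO 3.28, SE 0.306). Apln, the endothelial peptide apelin, was at 16.7 and 14.3 CPM in WT and at 211 and 55.4 CPM in D/KO cells (1.70, SE 0.18). Endothelial markers summed to 861 to 935 CPM in the D/KO day 0 libraries and to 640 to 724 CPM at D/KO day 2, against the 15.1 to 17.5 and 62.3 to 67.2 CPM of WT cells, and the part of endothelial cells in these differences was not tested. Keratinocyte markers were also higher in D/KO cells, at 102 to 107 CPM and 413 to 471 CPM. Tgfbi rose in WT cells and did not pass the test in D/KO cells, at 42.1 and 40.9 CPM (WT minus D/KO 1.24, SE 0.137, edgeR adjusted p = 7.63e-08). Xdh, xanthine dehydrogenase, rose in WT cells and fell in D/KO cells (126 to 73.1 CPM, WT minus D/KO 1.32, SE 0.128).

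By list, counts of D/KO cells are read against 14.3% of all genes higher and 13.2% lower in that arm, where WT cells had 6.26% and 4.3%, and counts of genes that differed against 6.54% of all genes. In mitosis 22 of 35 genes were higher in D/KO cells against 1 in WT cells, and the difference itself passed the test for 6. In DNA replication the numbers were 15 of 39 against 1, with 3 that differed, a share near that of all genes, and in homologous recombination and Fanconi genes 8 of 30 against 2, with 5 that differed. For cholesterol synthesis 18 of 24 were higher in each arm, the median was 0.57 in the D/KO arm beside 0.565 in the WT arm, and no member differed at an edgeR adjusted p under 0.05, with 1 at an unadjusted p under 0.05 and 1 called by DESeq2. Contractile and TGFb target genes had 15 lower members in D/KO cells and 11 in WT cells, and 6 differed. In 5 of these the WT change was the more positive, and in 1, Cnn1, it was the more negative (-1.40, SE 0.389).

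WT cells with VC gave the last comparison, within the same cell line. There 2191 genes were higher (13.8%) and 2166 lower (13.7%) at day 2 plus VC against day 0 plus VC. Of the genes higher without VC 753 were also higher with VC (76% and 34.4% of the 2 lists), and of the lower genes 506 (74.3% and 23.4%). The change differed between WT cells without and with VC in 874 genes (5.52%), of which 315 were called between the days without VC. By fitted values alone, 566 had the same sign in both conditions and the larger size with VC, 8 the same sign and the larger size without VC, and 300 opposite signs.

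For the factors, the difference passed the test in Klf4 only (-0.88, SE 0.256, edgeR adjusted p = 0.0348), with means of 193 and 194 CPM without VC and 90.3 and 167 CPM with VC, and this call was lost in 10 of 17 alternatives. Pou5f1 (-0.46, SE 0.51), Sox2 (0.19, SE 0.40) and Myc (-0.23, SE 0.155) did not pass. Aldh1a3, a retinoic acid synthase, and Tenm4 had the most negative differences among the genes of smallest p (-4.21, SE 0.261, and -4.59, SE 0.288). Neither passed the test without VC, where Aldh1a3 was at 72, 63.9 and 59.8 CPM and then at 87.1, 78.9 and 81.3 CPM. With VC it went from 1.53 to 35.9 CPM, so the day 2 level without VC remained the higher. Lbp, Itgb4 and Mmp28 rose on both sides and further with VC (differences -3.16, -3.13 and -3.12). In the opposite sense, the water channel Aqp1 rose without VC (76.1, 84.5 and 80.8 CPM to 144, 152 and 137 CPM) and fell with VC (413 to 114 CPM), a difference of 2.69 (SE 0.209, edgeR adjusted p = 1.54e-11).

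Tnn, Sema3f, Lrrc17 and Cthrc1 had lower day 2 than day 0 means in both conditions and the larger fall with VC (differences 1.90, 1.62, 1.39 and 2.06), and Cthrc1 did not pass the test without VC. Tnn was at means of 124 and 20.1 CPM without VC and of 459 and 20 CPM with VC, so its day 2 levels were close. Acta2 fell further with VC (difference 1.12, SE 0.231, edgeR adjusted p = 0.00154), from 581 to 59 CPM. By list, counts with VC are read against 13.8% of all genes higher and 13.7% lower, and counts that differed against 5.52%. Mitosis genes again set the conditions apart: 29 of 35 fell from day 0 to day 2 with VC and none without VC (1 at an unadjusted edgeR p under 0.05, and 0 by DESeq2), and 16 differed. Mki67 had means of 22.4 and 14.4 CPM with VC and of 5.53 and 7.52 CPM without VC. Its day 2 level thus remained the higher with VC, as did those of Hmmr (3.96 against 2.25 CPM) and Cdca8 (5.67 against 3.69 CPM). Interferon-stimulated genes were lower in 21 of 29 cases with VC and in none without VC, and 3 differed. The cholesterol synthesis genes were higher in 19 and lower in 1 of 24 cases with VC, and 2 differed.

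**Figure D5:**
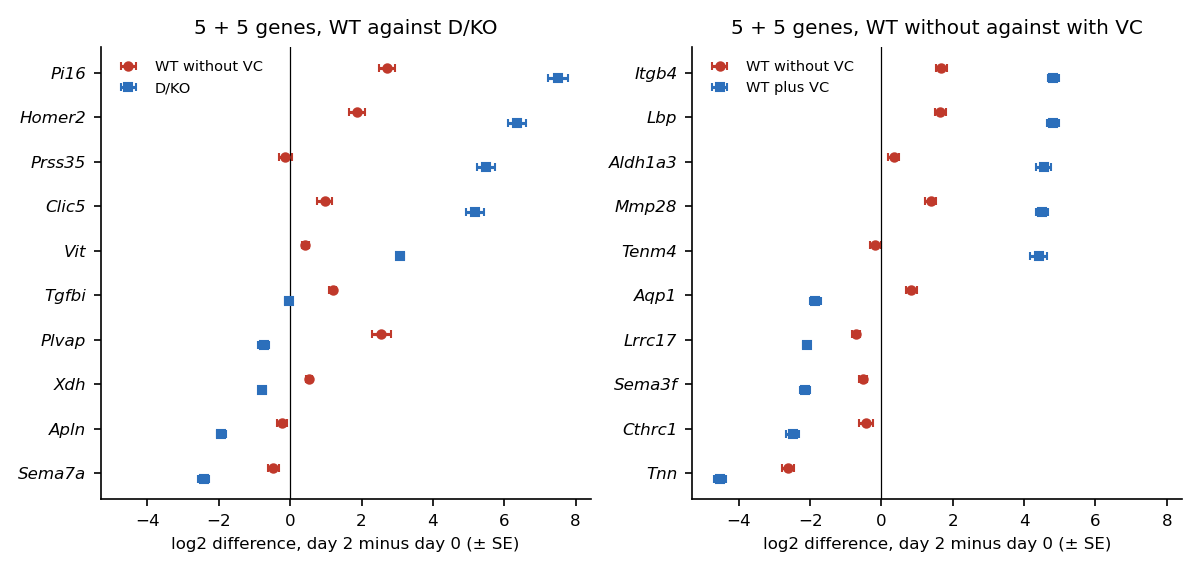
Fitted log2 difference, day 2 minus day 0, with its SE, for the 5 genes of smallest p in each direction of the test of WT against D/KO cells (left) and of WT cells without against with VC (right); red circles are WT cells without VC and blue squares the other arm. Pi16 is at 2.71 in WT and 7.52 in D/KO cells and Plvap at 2.55 and -0.74; Aqp1 is at 0.84 without and -1.85 with VC.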

How the data were processed

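The values used are raw counts per gene that the authors deposited, made with FastQC, Trim Galore, alignment to GRCm39 by HISAT2 and counting by featureCounts of Subread, from polyA libraries read as 150 bp pairs. Tool versions, the annotation release, strandedness and the handling of reads that fit several places are not given in the sources used here. Symbols were found for 56236 of 56980 gene identifiers (98.7%) in GENCODE M39, and 60.6% of these have the same start and end there.

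In R 4.3.3 with edgeR 4.0.16 and limma 3.58.1, the 36 time course libraries (12 groups of 3) were fitted together, with TMM scaling and filterByExpr (minimum count 10, minimum total 15). The contrasts were tested with the two-sided quasi-likelihood test, with Benjamini-Hochberg adjustment over the 15832 genes kept. The common biological coefficient of variation was 0.132. The scripts were tested on simulated data. Alternatives were DESeq2 1.42.0, its size factors, other filters, only the compared libraries, a log2 threshold of 1, median centring and each library left out in turn. A gene at 0 at day 0 was set to a floor of 3 counts over the group, which covers counting error at day 0 only. The inhibitor count table was not used.

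Genes named are the factors, the 10 largest called changes in each direction with at least 5 CPM and no overlap, the 5 smallest p in each direction and each interaction test, up to 4 members of smallest p per list, defining members, and genes at 0 at day 0. Some genes that this rule names, and some members of the lists, are not reported here or drawn, but stay in the counts and medians. Other members given only with a log2 difference were chosen after their values were seen. The comparison and the lists, compiled by hand, were chosen with earlier results of these data known. Promoter windows came from RefSeq (GRCm38.p6), which is another build than that of the counts.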

Additional observations from a re-analysis of the deposited data

Results flagged for a closer look

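These results were singled out because the day 2 change of WT cells without VC differed, by the interaction test in edgeR, from that of another arm. All values are differences of log2 changes.

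For WT minus D/KO cells, 1036 genes differed. The difference was -2.25 for Pou5f1 and -1.27 for Klf4. Among the genes of smallest p it was 3.28 for Plvap, 1.32 for Xdh, 1.7 for Apln, 1.96 for Sema7a and 1.24 for Tgfbi, and -2.66 for Vit, -5.63 for Prss35, -4.8 for Pi16, -4.21 for Clic5 and -4.49 for Homer2.

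For WT cells without minus with VC, 874 genes differed. The difference was -0.88 for Klf4. Among the genes of smallest p it was 2.69 for Aqp1, 1.62 for Sema3f, 1.39 for Lrrc17, 1.9 for Tnn and 2.06 for Cthrc1, and -4.21 for Aldh1a3, -4.59 for Tenm4, -3.16 for Lbp, -3.13 for Itgb4 and -3.12 for Mmp28.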

How the results depend on the processing

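With a log2 difference of at least 1 required as well, 307 genes were higher and 179 lower at WT day 2. The WT change was then more positive in 162 and more negative in 310 genes against D/KO cells, and in 181 and 195 genes against WT cells with VC. With 1 library left out, 660 to 1227 genes were higher and 404 to 829 lower at WT day 2. The difference from D/KO cells held 307 to 556 more positive and 409 to 588 more negative genes, and that from cells with VC 317 to 488 and 291 to 465. DESeq2 gave 1095 higher and 893 lower genes, its size factors in edgeR 933 and 741, no filter 1029 and 732, at least 10 counts in every library 903 and 702, and only the 6 libraries 757 and 634.

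The log2 difference of Klf4 was -0.011 with DESeq2 and also -0.011 with its size factors, -0.0061 without WT day 0 replicate 3 and -0.12 without WT day 2 replicate 1, and it ran from -0.12 to 0.075 over the libraries left out. That of Sox9 was 0.047 without WT day 0 replicate 3 and ran down to -0.18. The difference of Sox2 between WT cells without and with VC was -0.029 without WT day 0 replicate 3 and -0.006 without WT day 2 replicate 3, and reached 0.49 without WT day 2 replicate 2. None of these values was called in the fit of all libraries, and the cause of the turns was not tested.

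No paired analysis was possible because each library has a running number of its own in the labels and replicate numbers follow accession order only. What depth limits was not tested apart from the spread between libraries.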
